A study of Mus musculus with 52 samples.

Results

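The Hox genes encode homeodomain transcription factors that give cells an address along the head-to-tail axis, and the mouse carries them in 4 clusters, HoxA to HoxD. The 39 genes described here were taken by symbol, a Hox letter from a to d followed by a position number, from the 24116 genes of one table of mouse intestinal organoid expression. The HoxA cluster gave 11 of them, HoxB 10, HoxC 9 and HoxD 9. Within a cluster, low position numbers lie at the 3′ end and act in anterior structures, and high numbers lie at the 5′ end and act in posterior ones. In the mouse embryo retinoic acid switches on 3′ Hox genes through receptors that pair with the retinoid X receptor (RXR), and the caudal factors Cdx1 and Cdx2 bind near Hox genes of the trunk. The adult gut keeps a positional Hox pattern from its embryonic origin, mostly in the mesenchyme and more weakly in the epithelium.

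Intestinal organoids came from 2 male C57BL/6 wild-type littermates aged 8 weeks, 1 culture per mouse, and RNA of each culture was purified in duplicate from 3 pooled wells; the labels do not name the gut segment. All-trans retinoic acid (atRA, 10 µM), an antagonist of RXR (RXRi, 5 µM) or the solvent dimethyl sulfoxide (DMSO) was given at day 0 and again at day 3, and RNA was taken after 1, 3, 4 and 5 days; a DMSO group at day 0 is the starting point. All organoids began as single cells in a Wnt3a-rich medium with CHIR99021 and Y-27632 and went into plain EGF, Noggin and R-spondin medium at day 3. Days before and after day 3 therefore also differ in medium. The 13 groups had 4 libraries each, 52 in all, and 1 library of DMSO at day 1, culture 1, held 12443 reads and no Hox read and was left out. The other 51 libraries held 12895667 to 26206030 reads on genes, with a median of 19686971. A mean ± SD below is over the 2 cultures (n = 2), and the tests measure the spread between these cultures. Organoids are mixed epithelium, and bulk RNA cannot tell fewer cells of a type from less RNA per cell.

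Hox transcripts were scarce in every group. The 51 libraries held 21 to 249 Hox reads each, with a median of 83, which is 1.63 to 13.4 RPM (reads per 1000000 gene reads). No Hox gene reached 1 RPKM (reads per kilobase of transcript, scaled to library size) in any library, and the highest single value was 0.937 RPKM, for Hoxb3. For scale, the median group mean over all genes with a read was 2.28 RPKM. The HoxA genes held 3060 of the 5116 Hox reads (59.8%) and the HoxB genes 1744 (34.1%), against 144 (2.81%) for HoxC and 168 (3.28%) for HoxD. A gene of 2 kb with no read in a library could still have been present at up to 0.0572 RPKM in the deepest library and 0.116 RPKM in the shallowest one used, the level that 3 reads would give, for counting error only.

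Of the 39 genes, 26 stayed under 0.1 RPKM in every group and are called silent here, a word that covers levels under that limit and not absence. They included Hoxa2, Hoxa6, Hoxa11 and Hoxa13, then Hoxb1, Hoxb8, Hoxb9 and Hoxb13, all HoxC genes but Hoxc6, and all 9 HoxD genes. Among them, 6 had no read in any library, namely Hoxc11, Hoxc12, Hoxd1, Hoxd10, Hoxd11 and Hoxd12, and the other 20 had at least 1. The gene just under the limit was Hoxd13, with 0.0989 RPKM in RXRi at day 1, and the one just over it was Hoxb7, with 0.114 RPKM in DMSO at day 1. Hoxb1, a well known retinoic acid target in the embryo, had 3 reads over all libraries. Hoxb13 and Hoxd13, posterior genes known from the hindgut, had 5 and 60.

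The other 13 genes formed 2 stretches. In HoxA they were Hoxa3, Hoxa4, Hoxa5, Hoxa7, Hoxa9 and Hoxa10, with the highest level at position 9. In HoxB they were Hoxb2 to Hoxb7 without a gap, with the highest level at position 3. Hoxc6 was the single HoxC gene. Ranked by their highest group mean they ran Hoxa9 (0.832 RPKM), Hoxb3 (0.664), Hoxa10 (0.533), Hoxb4 (0.513), Hoxb2 (0.474), Hoxa7 (0.305), Hoxa3 (0.245), Hoxa5 (0.210), Hoxb5 (0.209), Hoxc6 (0.202), Hoxb6 (0.151), Hoxa4 (0.119) and Hoxb7 (0.114). These highest values fell in day 1 groups for 11 of the genes; Hoxa3 peaked in atRA at day 4 and Hoxa4 in DMSO at day 0. Neighbours in this order were mostly closer than the difference between 2 cultures of a group: Hoxb3 alone spanned 0.396 and 0.932 RPKM in its highest group, atRA at day 1.

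**Figure D1:**
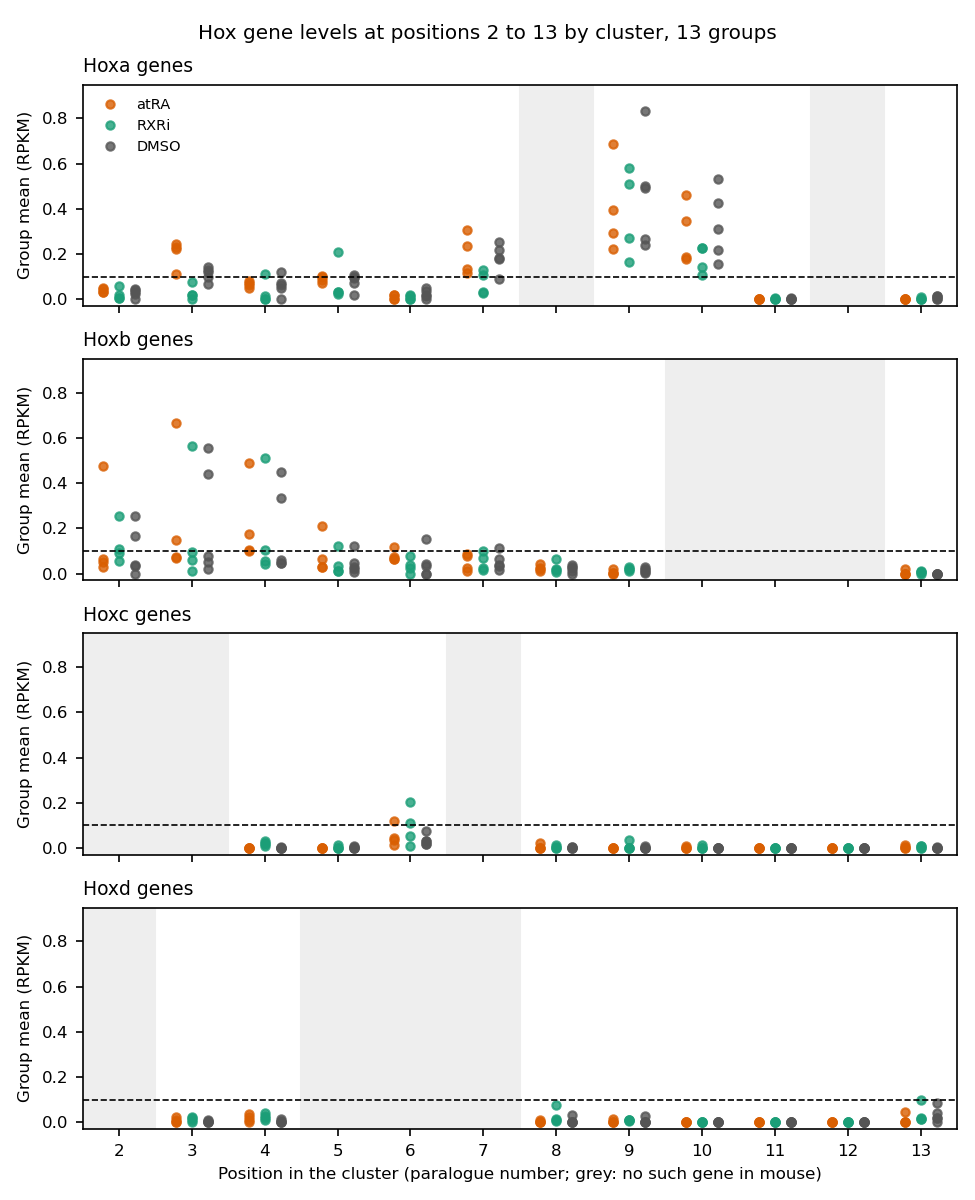
Mean level (RPKM) of the Hox genes at positions 2 to 13 in each of the 13 groups, by cluster and position, with atRA, RXRi and DMSO groups side by side and the dashed line at 0.1 RPKM. Levels above the line lie in HoxA at positions 3, 4, 5, 7, 9 and 10, in HoxB at positions 2 to 7 and at Hoxc6, and all HoxD points lie under it.

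Upstream sequences are shown for the 3 HoxA genes that fell with RXRi and for Hoxb4, one of the HoxB genes that fell after day 1, because the caudal factors and the retinoid receptors bind known short motifs. Each line gives the 250 bases before the RefSeq start of the gene, 5′ to 3′ on the strand of the gene, from the RefSeq promoter table of build GRCm38.p6. Capitals mark the motifs TTTATG and TTTATT, which resemble caudal sites, and AGGTCA and GGTTCA, the retinoid receptor core, on either strand. The Hoxa3 stretch is chr6:52213068-52213317, minus strand; Hoxa7 is chr6:52218574-52218823, minus strand; Hoxa10 is chr6:52240855-52241104, minus strand, the more distant of its 2 listed starts; Hoxb4 is chr11:96318017-96318266, plus strand.
Hoxa3: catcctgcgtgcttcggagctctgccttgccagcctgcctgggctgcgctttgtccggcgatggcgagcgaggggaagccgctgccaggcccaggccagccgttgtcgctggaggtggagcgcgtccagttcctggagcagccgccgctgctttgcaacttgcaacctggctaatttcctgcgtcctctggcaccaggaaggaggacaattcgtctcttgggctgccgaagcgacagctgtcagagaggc
Hoxa7: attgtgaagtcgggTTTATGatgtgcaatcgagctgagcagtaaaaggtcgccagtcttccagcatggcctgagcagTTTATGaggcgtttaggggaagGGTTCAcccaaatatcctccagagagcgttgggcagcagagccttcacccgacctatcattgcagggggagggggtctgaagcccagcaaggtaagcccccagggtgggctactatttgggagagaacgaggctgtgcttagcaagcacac
Hoxa10: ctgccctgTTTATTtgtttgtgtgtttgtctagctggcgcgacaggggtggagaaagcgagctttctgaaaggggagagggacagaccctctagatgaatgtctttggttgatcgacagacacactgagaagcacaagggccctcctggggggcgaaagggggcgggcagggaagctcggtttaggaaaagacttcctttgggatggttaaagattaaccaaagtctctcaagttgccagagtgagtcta
Hoxb4: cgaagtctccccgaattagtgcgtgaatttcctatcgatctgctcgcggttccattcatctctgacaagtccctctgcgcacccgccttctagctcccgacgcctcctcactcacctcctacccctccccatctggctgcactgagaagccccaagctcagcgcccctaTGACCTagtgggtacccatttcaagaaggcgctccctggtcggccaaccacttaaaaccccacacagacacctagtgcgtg
The Hoxa7 stretch held TTTATG at 236 and 173 bases before the start and GGTTCA at 151. Hoxa10 held TTTATT at 242 bases before the start, Hoxb4 held AGGTCA on the opposite strand at 81, and Hoxa3 held no such letters in its stretch. The nearer start of Hoxa10, not shown, held none of these motifs in its 250 bases. Of all 32851 promoters in the table, 10.76% held TTTATG, 18.08% TTTATT, 14.02% AGGTCA and 8.85% GGTTCA within the same 250 bases, against 5, 5, 6 and 2 of the 24 promoters of the 22 Hox genes listed. A direct repeat of AGGTCA or GGTTCA with 5 bases between (DR5) was in none of the 24 and in 0.0183% of all. These are letter matches and not binding sites.

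Differences between groups were tested with limma on log2(RPKM + 1) over the culture means, with Benjamini-Hochberg adjustment over all genes tested. On that scale a difference of a gene under 1 RPKM is far smaller than its fold change, so folds of mean RPKM are given beside it. The planned filter, 1 RPKM in 4 libraries, left none of the 39 genes to test. The results below therefore come from a lower filter, 0.1 RPKM in 4 libraries, with 15252 genes, which left 14 Hox genes: the 13 above and Hoxb8. Some of these passed the filter through the very groups where they were high. Any difference among the 13 groups was called for 9 of the 14 (Hoxa3, Hoxa5, Hoxa7, Hoxa9, Hoxa10, Hoxb2, Hoxb3, Hoxb4 and Hoxb5), in a table where 92.3% of all genes tested were called. The 5 not called were Hoxa4, Hoxb6, Hoxb7, Hoxb8 and Hoxc6, each with 62 to 95 reads over 51 libraries. The split of the genome-wide calls moved with median-of-ratios scaling in 5 comparisons. It gave 3562 higher and 3263 lower genes for DMSO day 4 against day 3 (2668 and 4392 as deposited), 386 and 76 for day 5 against day 4 (290 and 153), 694 and 371 for atRA at day 4 (466 and 836), 1416 and 1351 for the atRA mean (1115 and 1968), and 4045 and 3900 for RXRi at day 4 (3065 and 4799).

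Averaged over groups, Hoxb2, Hoxb3, Hoxb4 and Hoxb5 were 5.45, 8.32, 5.43 and 4.85-fold lower at days 3 to 5 than at days 0 and 1. The other non-silent genes were lower too, by 1.74-fold (Hoxa10) to 2.91-fold (Hoxb6), except Hoxa3, with 0.118 RPKM later and 0.108 RPKM before. Of Hoxb2 to Hoxb5, Hoxb3 and Hoxb4 passed the test between day 3 and day 1 in DMSO. Hoxb3, a gene of hindbrain and branchial arch patterning in mouse, had group means of 0.441 to 0.664 RPKM in the 4 groups of days 0 and 1, and of 0.0113 to 0.150 RPKM in the 9 groups of days 3 to 5. In DMSO its libraries read 0, 0, 0.0620 and 0.0120 RPKM at day 3, against 0.424, 0.682 and 0.690 RPKM at day 1. Every library of day 3 lay below every library of day 1. The means were 0.0185 ± 0.0262 and 0.555 ± 0.185 RPKM, and the fall of 0.61 on the log2 scale (SE 0.11) had an adjusted p of 0.00123 with limma. It kept its call in all 11 alternatives tried. On whole reads with voom, limma's method for counts, the log2 change of Hoxb3 was -5.80 (adjusted p = 0.000471). The DMSO libraries of day 3 held 0, 0, 5 and 1 reads of Hoxb3, so the size of that change is uncertain.

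Hoxb4, a gene known from blood stem cells and the neck vertebrae, had a DMSO mean of 0.0611 ± 0.0241 RPKM at day 3 and 0.333 ± 0.192 RPKM at day 1. Its libraries read 0.0357, 0.120, 0.0360 and 0.0521 RPKM at day 3, against 0.197, 0.378 and 0.558 RPKM at day 1, with no overlap. It fell by 0.32 on the log2 scale (SE 0.10, limma adjusted p = 0.0488), just under the threshold, and the call was lost in 6 of 11 alternatives; with voom on whole reads it held, at -2.38 (adjusted p = 0.0347). Hoxb2, which patterns the hindbrain with Hoxa2, had 6 reads in DMSO at day 3 against 19 at day 1. Its 3 day 1 libraries read 0, 0.265 and 0.403 RPKM and overlapped the 4 at day 3 (0.113, 0.0474, 0 and 0), and the difference of -0.15 (SE 0.11) had a limma adjusted p of 0.418. Hoxb5, a gene of enteric neuron and lung development, had group means of 0.0468 to 0.209 RPKM at days 0 and 1 and of 0.00694 to 0.0650 RPKM later, and did not pass between day 3 and day 1 in DMSO (-0.14, SE 0.06, limma adjusted p = 0.124).

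Between day 3 and day 1 in DMSO, 3 Hox genes were lower (Hoxb3, Hoxb4 and Hoxa9) and none higher, where 8.06% of all genes tested were lower and 5.66% higher. With voom on whole reads 2 were called (Hoxb3 and Hoxb4), where 12.8% of all genes were called in either direction. Keeping the shallow library left 1 call, Hoxb3.

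**Figure D2:**
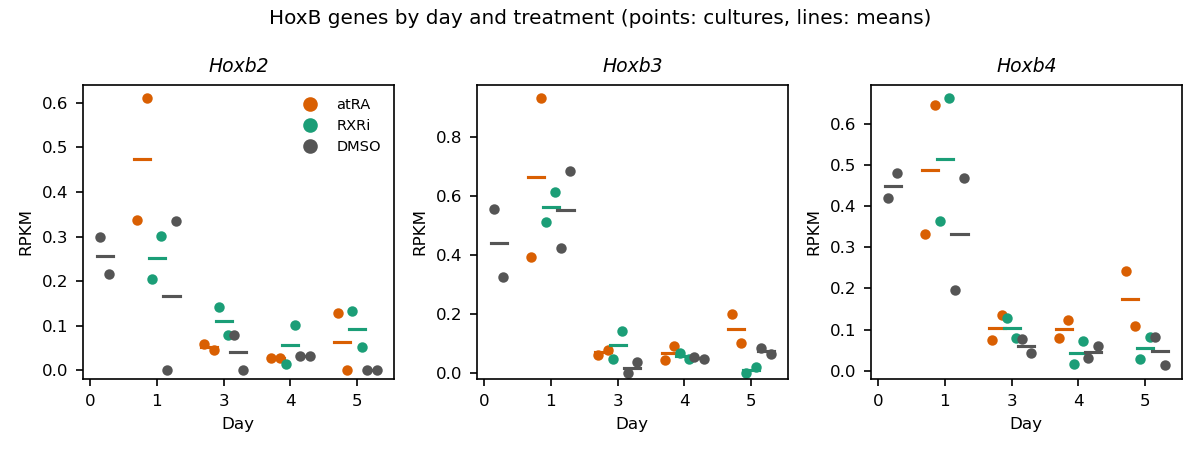
Level (RPKM) of Hoxb2, Hoxb3 and Hoxb4 by day, with atRA, RXRi and DMSO left to right; points are the 2 cultures and bars their means. Hoxb3 group means lie at 0.441 to 0.664 RPKM at days 0 and 1 and at or under 0.150 RPKM from day 3 on in every treatment.

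The same days separated other genes of the marker lists. Chga, the granule protein of enteroendocrine cells, had 8.96 ± 1.05 RPKM in DMSO at day 3 and 194 ± 9.99 RPKM at day 1. Of the 13 epithelial markers, 5 fell and 1 rose between these days, while all 13 stayed above 0.1 RPKM in every group. The summed level of the 12 fibroblast and mesenchyme markers was 1.88 to 1.98 RPKM at day 3 and 13.4 to 20.9 RPKM at day 1, carried by Vim, and 9 of the 12 stayed under 0.1 RPKM in every group. The 5 neuron and glia markers summed to 0.627 to 0.706 RPKM at day 3 and 1.97 to 2.42 RPKM at day 1, with Sox10 under 0.1 RPKM throughout, the 4 endothelial markers to 0.0621 to 0.102 RPKM at day 3 and 0.444 to 0.481 RPKM at day 1, and the 6 immune markers to 8.79 to 9.20 RPKM at day 3 and 15.9 to 22.1 RPKM at day 1. In the immune list only Lyz2, whose near-identical copy Lyz1 is a Paneth cell gene, was above 0.1 RPKM. Day 1 RNA preceded the medium change, and day 3 RNA was taken on the day of the change. The part of cell makeup or of the medium change in the Hoxb3 difference was not tested.

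Hoxa9 and Hoxa10 were the most evenly found Hox genes, with reads in all 51 libraries. Hoxa9, a posterior HoxA gene also known from blood progenitors, had 1310 reads in all, and Hoxa10, known from the uterus and hindlimb of the mouse, 828. In DMSO, Hoxa9 averaged 0.493 ± 0.0612, 0.832 ± 0.0318, 0.499 ± 0.164, 0.266 ± 0.0506 and 0.242 ± 0.0772 RPKM at days 0, 1, 3, 4 and 5. Hoxa10 averaged 0.309 ± 0.0967, 0.533 ± 0.120, 0.425 ± 0.0205, 0.220 ± 0.0706 and 0.155 ± 0.0184 RPKM on the same days. Both were highest at day 1 and lowest at day 5.

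Both rose at day 1 against day 0, Hoxa9 by 0.30 (SE 0.09, limma adjusted p = 0.00865) and Hoxa10 by 0.23 (SE 0.07, adjusted p = 0.0140) on the log2 scale. The Hoxa9 libraries read 0.854, 0.769 and 0.850 RPKM at day 1 and 0.524, 0.548, 0.373 and 0.526 RPKM at day 0, with no overlap. They were the 2 Hox genes called there, where 22.2% of all genes were higher and 34.2% lower, and both calls were lost with voom on whole reads, with a pseudocount of 0.1 RPKM and with the shallow library kept. Between day 3 and day 1 Hoxa9 fell by 0.30 (SE 0.09, adjusted p = 0.0282), but its libraries overlapped, at 0.540, 0.227, 0.429 and 0.801 RPKM at day 3, and the call was lost in 7 of 11 alternatives, without either day 1 culture (adjusted p = 0.143 and 0.0953) and without culture 1 of day 3 (0.365) among them. Between day 4 and day 3 both fell, Hoxa10 by 0.22 (SE 0.07, adjusted p = 0.0196) and Hoxa9 by 0.23 (SE 0.09, adjusted p = 0.0396), where 28.8% of genes were lower and 17.5% higher. Hoxa9 lost that call in 9 of 11 alternatives, with adjusted p up to 0.399, among them voom, no filter, the other pseudocount and scaling, and without culture 2 of day 3 or either culture of day 4. Hoxa10 kept it with voom and lost it in 4 of 11, with the shallow library kept, without either culture of day 3 (adjusted p = 0.0834 and 0.0615) and without culture 2 of day 4 (0.160). No Hox gene was called between day 5 and day 4, by limma or by voom (1 at an unadjusted p under 0.05 with each), where 1.00% of genes were lower and 1.90% higher.

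With RXRi, 3 HoxA genes fell over the 4 treated days: Hoxa3, Hoxa7 and Hoxa10. In each of them all 8 culture means with RXRi lay below the DMSO mean of the same culture and day. These were the Hox genes called lower with the mean of 4 days, none was higher, and 38.6% of all genes tested were lower and 28.5% higher, so the count of 3 of 14 is no larger a share than that of other genes. All 3 calls held in each of the 23 alternatives tried. With voom on whole reads 4 were called, where 68.1% of genes were called; the additional one was Hoxb2, higher.

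Hoxa3, which patterns the thymus and parathyroid in mouse, averaged 0.0290 RPKM over the 4 days with RXRi and 0.116 RPKM with DMSO, 4.01-fold lower. Over all libraries it had 0, 0.0244 and 0.123 RPKM as its lowest, median and highest value with RXRi (n = 16), against 0, 0.144 and 0.193 RPKM with DMSO (n = 15). At day 3 its libraries read 0.0396, 0.0337, 0 and 0 RPKM with RXRi and 0.0902, 0.0911, 0.145 and 0.158 RPKM with DMSO, without overlap. At day 5 no RXRi library held a read of Hoxa3, against 10 reads in the 4 DMSO libraries, 1 of which was also at 0. The mean fall of 0.12 on the log2 scale (SE 0.03) had a limma adjusted p of 0.00139, and voom gave -2.61 (adjusted p = 3.71e-05).

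Hoxa7, a gene of the thoracic trunk in mouse, averaged 0.0734 RPKM with RXRi and 0.167 RPKM with DMSO over the 4 days, 2.28-fold lower. Its lowest, median and highest library was 0, 0.0557 and 0.187 RPKM with RXRi and 0.0344, 0.154 and 0.272 RPKM with DMSO. It fell by 0.12 (SE 0.03, limma adjusted p = 0.00382), and by 1.32 with voom (adjusted p = 0.000749). At day 4 its libraries read 0.0418, 0.0434, 0.0406 and 0 RPKM with RXRi and 0.0827, 0.235, 0.272 and 0.130 RPKM with DMSO, without overlap. On the other treated days the RXRi and DMSO libraries of Hoxa7 overlapped.

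Hoxa10 averaged 0.176 RPKM with RXRi and 0.333 RPKM with DMSO over the 4 days, 1.90-fold lower. It fell by 0.17 (SE 0.04, limma adjusted p = 0.000475) and by 0.87 with voom (adjusted p = 0.00099). The difference was there at day 1, when its libraries read 0.255, 0.149, 0.245 and 0.258 RPKM with RXRi and 0.448, 0.532 and 0.703 RPKM with DMSO, without overlap. At day 5 the values were 0.184, 0.0927, 0.0667 and 0.0784 RPKM with RXRi and 0.221, 0.115, 0.173 and 0.111 RPKM with DMSO, which overlapped. Hoxa9, its neighbour, did not pass, at -0.07 (SE 0.04, limma adjusted p = 0.163). It averaged 0.382 RPKM with RXRi and 0.460 RPKM with DMSO, 1.20-fold lower, from 403 reads in 16 libraries and 399 in 15. Its culture means were lower with RXRi in 4 of 8 pairs and higher in 4.

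By single day, RXRi gave 1 call at day 1 (Hoxa10 lower, by 0.32, SE 0.07, adjusted p = 0.00518), where 8.88% of genes were lower and 9.45% higher; it was lost in 2 of 11 alternatives, without culture 2 of DMSO (0.0771) and with the shallow library kept (0.170). At day 3 it gave 1 (Hoxa10 lower, by 0.21, adjusted p = 0.0290), where 21.1% were lower and 15.9% higher, and at day 4 it gave 2 (Hoxa3 and Hoxa7 lower, adjusted p = 0.0367 and 0.0218), where 31.5% were lower and 20.1% higher. At day 5 limma called none (0 at an unadjusted p under 0.05), where 30.7% were lower and 26.6% higher, while voom called 2, Hoxa3 and Hoxb3 lower, where 58.2% were called. At day 3 voom called 3, Hoxa3 and Hoxa10 lower and Hoxb3 higher, where 40.8% were called, and at day 4 it called 4 lower (Hoxa3, Hoxa4, Hoxa5 and Hoxa7), where 55.5% were called. The limma calls at days 3 and 4 did not hold throughout. The day 3 call of Hoxa10 was lost in 5 of 11 alternatives, without either DMSO culture (adjusted p = 0.116 and 0.0836) and without culture 1 of RXRi (0.331) among them. At day 4, Hoxa3 lost its call whichever of the 4 culture means was left out (adjusted p = 0.0641 to 0.163) and with the shallow library kept, and Hoxa7 lost it without culture 2 of DMSO (0.121) or either culture of RXRi (0.0570 and 0.103). The change of the RXRi effect with time was called for none of the 14 genes; 1 had an unadjusted p under 0.05.

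**Figure D3:**
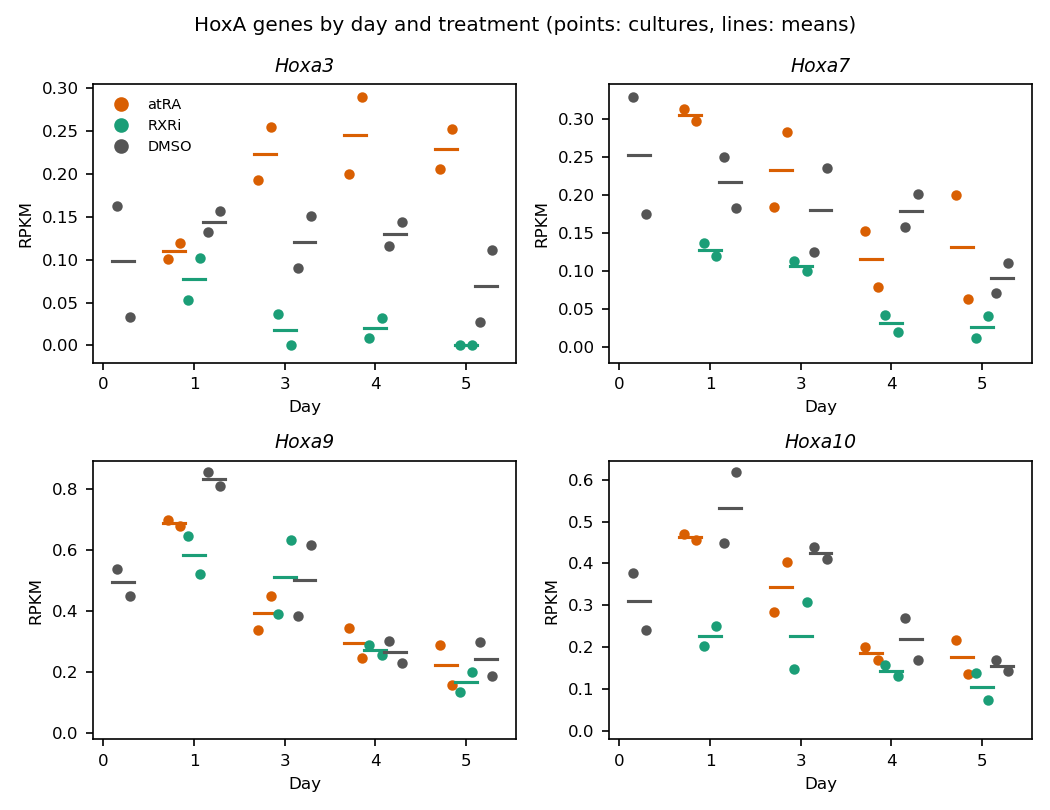
Level (RPKM) of Hoxa3, Hoxa7, Hoxa9 and Hoxa10 by day, with atRA, RXRi and DMSO left to right; points are the 2 cultures and bars their means. RXRi lies under DMSO in Hoxa3, Hoxa7 and Hoxa10 on all 4 treated days, and in Hoxa3 atRA lies above DMSO at days 3, 4 and 5.

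The HoxB genes with the most reads did not pass with limma over the mean of 4 days. Hoxb2, Hoxb3 and Hoxb4 had mean differences of 0.09, 0.01 and 0.06 on the log2 scale (SE 0.05, 0.06 and 0.05; limma adjusted p = 0.135, 0.917 and 0.306). With voom on whole reads Hoxb2 was higher over the mean, by 1.72 (adjusted p = 0.0274), and Hoxb3 was higher at day 3, by 3.07 (adjusted p = 0.0296), and lower at day 5, at -2.96 (adjusted p = 0.0340). The lower group of Hoxb3 held 0, 0, 5 and 1 reads at day 3 (DMSO) and 0, 0, 4 and 0 at day 5 (RXRi). Hoxc6, a gene of the thoracic trunk, had 48 reads in 16 libraries with RXRi and 18 in 15 with DMSO over days 1 to 5. It averaged 0.0927 and 0.0394 RPKM, and its difference of 0.07 (SE 0.04) did not pass (limma adjusted p = 0.111).

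Over the same comparison the caudal genes fell, with differences on the log2 scale of -3.95 (SE 0.11) for Cdx1 and -1.40 (SE 0.06) for Cdx2 (limma adjusted p = 6.57e-15 and 1.97e-12). Cdx1, an intestinal homeobox gene, averaged 31.9 ± 3.20, 4.82 ± 1.38, 3.25 ± 0.254 and 1.71 ± 0.530 RPKM with RXRi at days 1, 3, 4 and 5, against 127 ± 4.40, 117 ± 19.2, 108 ± 31.3 and 77.0 ± 21.3 RPKM with DMSO. Cdx2, which sets intestinal identity, averaged 59.7 ± 7.44, 59.1 ± 6.63, 33.7 ± 3.04 and 23.0 ± 1.84 RPKM with RXRi and 78.2 ± 3.77, 111 ± 14.2, 126 ± 8.03 and 129 ± 5.33 RPKM with DMSO. Of the 6 caudal and ParaHox genes 3 were tested; Cdx1 and Cdx2 fell and Pdx1 rose with RXRi. Of 7 tested Pbx and Meis genes, whose proteins bind DNA together with Hox proteins, 3 rose, Pbx4 and Meis3 among them, and 4 fell. Of 10 Polycomb and Trithorax regulators of Hox chromatin, 5 fell and none rose, among them Ezh2, with a difference of -0.48 (SE 0.05), Suz12 with -0.59 (SE 0.07) and Eed with -0.35 (SE 0.05). The median difference was -0.17 over the Pbx and Meis genes and -0.19 over the chromatin regulators, and -0.04 over all genes tested. Of 9 tested genes next to the clusters, 6 fell and 3 rose. Markers moved too: 9 of 13 epithelial markers fell and 2 rose, Lgr5 of the stem cells and Lyz1 of Paneth cells among those that fell. The 13 summed to 5087 to 8165 RPKM per culture and day with RXRi and 2933 to 5432 RPKM with DMSO. Markers of other cell types fell as well and none rose: 2 of 3 tested for fibroblasts and mesenchyme, 2 of 2 for endothelium, 1 of 1 for immune cells (Lyz2, at -2.99, SE 0.14) and 1 of 3 for neurons and glia. Fibroblast and mesenchyme markers summed to 1.37 to 11.2 RPKM with RXRi and 1.88 to 20.9 RPKM with DMSO over days 1 to 5, and immune markers to 0.112 to 16.4 RPKM with RXRi and 8.79 to 32.0 RPKM with DMSO. Endothelial markers summed to 0.0214 to 0.313 RPKM with RXRi and 0.0621 to 0.481 RPKM with DMSO, and neuron and glia markers to 0.129 to 2.77 RPKM with RXRi and 0.624 to 2.42 RPKM with DMSO. Their part in the Hox differences was not tested.

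**Figure D4:**
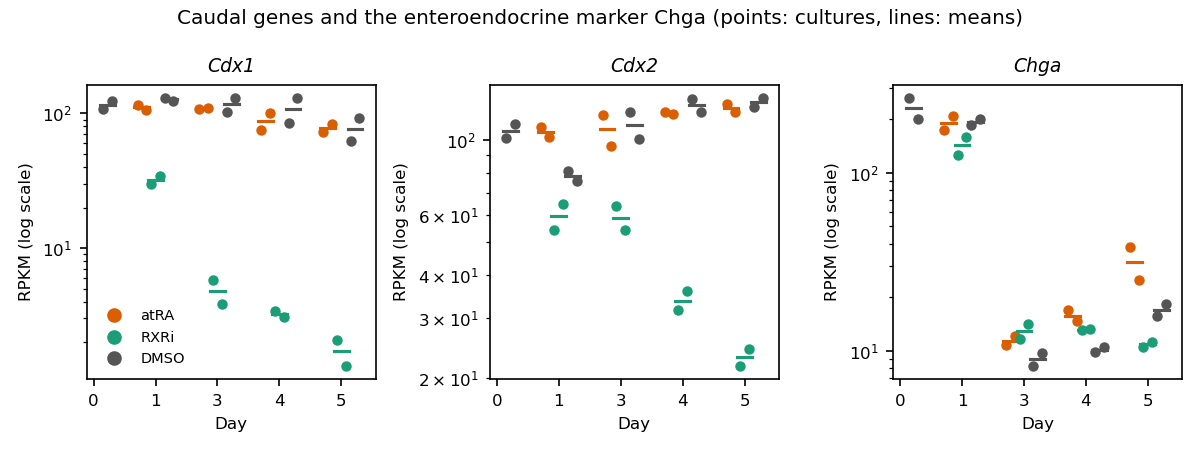
Level (RPKM, log scale) of Cdx1, Cdx2 and Chga by day, with atRA, RXRi and DMSO left to right; points are the 2 cultures and bars their means. With RXRi Cdx1 drops to 1.71 RPKM at day 5 against 77.0 RPKM with DMSO, and Chga is at 143 to 233 RPKM at days 0 and 1 and at or under 31.6 RPKM later.

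With atRA, Hoxa3 was the one Hox gene called. It averaged 0.202 RPKM over the 4 days with atRA and 0.116 RPKM with DMSO, 1.74-fold higher, and its culture means were higher with atRA in 6 of 8 pairs; the 2 exceptions were at day 1. At day 4 its libraries read 0.210, 0.190, 0.340 and 0.240 RPKM with atRA and 0.175, 0.0560, 0.144 and 0.145 RPKM with DMSO, and at day 3 0.208, 0.178, 0.196 and 0.313 RPKM with atRA and 0.0902, 0.0911, 0.145 and 0.158 RPKM with DMSO. The groups did not overlap on either day. The mean rise of 0.11 (SE 0.03) had a limma adjusted p of 0.0120, where 7.31% of genes were higher and 12.9% lower. It held in 21 of 23 alternatives and was lost with voom on whole reads, without and with the culture as a block. At that setting voom called no Hox gene, where 20.4% of genes were called, and with the block it called Hoxb4.

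By single day, Hoxa3 passed at day 5 (0.20, SE 0.06, adjusted p = 0.0474), where 2.10% of genes were higher and 2.50% lower, and lost the call in 6 of 11 alternatives. At day 1 no Hox gene was called, where 1.67% of genes were higher and 1.52% lower. None was called at day 3, where 3.49% were higher and 3.84% lower, nor at day 4, where 3.06% were higher and 5.48% lower. Each of these days had 1 Hox gene, higher with atRA, at an unadjusted p under 0.05 with limma. Voom called none on any of the 4 days, with 1, 1, 0 and 4 at an unadjusted p under 0.05 on days 1, 3, 4 and 5. Hoxa3 was above DMSO with atRA and below it with RXRi from day 3 on; these comparisons share the DMSO libraries. Exons of Hoxa3 overlap those of Hoxaas2 and Hoxaas3 on the other strand by 503 and 297 bases in GENCODE, and Hoxa7 overlaps Hoxaas3 by 586 and Hoxb3 overlaps Hoxb3os by 2250. No source used here says whether counting used strand, and reads of such partners cannot be told apart.

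Hoxb1 stayed silent, under 0.1 RPKM in every atRA group, while other retinoic acid genes rose. Cyp26b1, an enzyme that breaks down retinoic acid, had 82.7 ± 57.1 RPKM with atRA and 0.892 ± 0.378 RPKM with DMSO at day 5, and Dhrs3, which limits its synthesis, had 89.0 ± 4.01 RPKM with atRA and 49.0 ± 5.61 RPKM with DMSO. Of 8 tested genes of the retinoic acid list, 4 rose with atRA over the mean of 4 days (Cyp26b1, Dhrs3, Stra6 and Tgm2) and 1 fell; with RXRi 2 rose and 4 fell. Hoxb4 had culture means above DMSO in 7 of 8 pairs with atRA, at 0.218 and 0.122 RPKM over the 4 days, with a difference of 0.11 (SE 0.05) that did not pass (limma adjusted p = 0.141). At day 5 its highest atRA library, culture 1 duplicate 2, was also the highest for Hoxb3, at 0.368 and 0.302 RPKM. The other duplicate of culture 1 had 0.117 and 0.0964 RPKM. Chga was 40.5 and 36.1 RPKM in these 2 libraries, and 24.3 and 25.6 RPKM in those of culture 2.

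**Figure D5:**
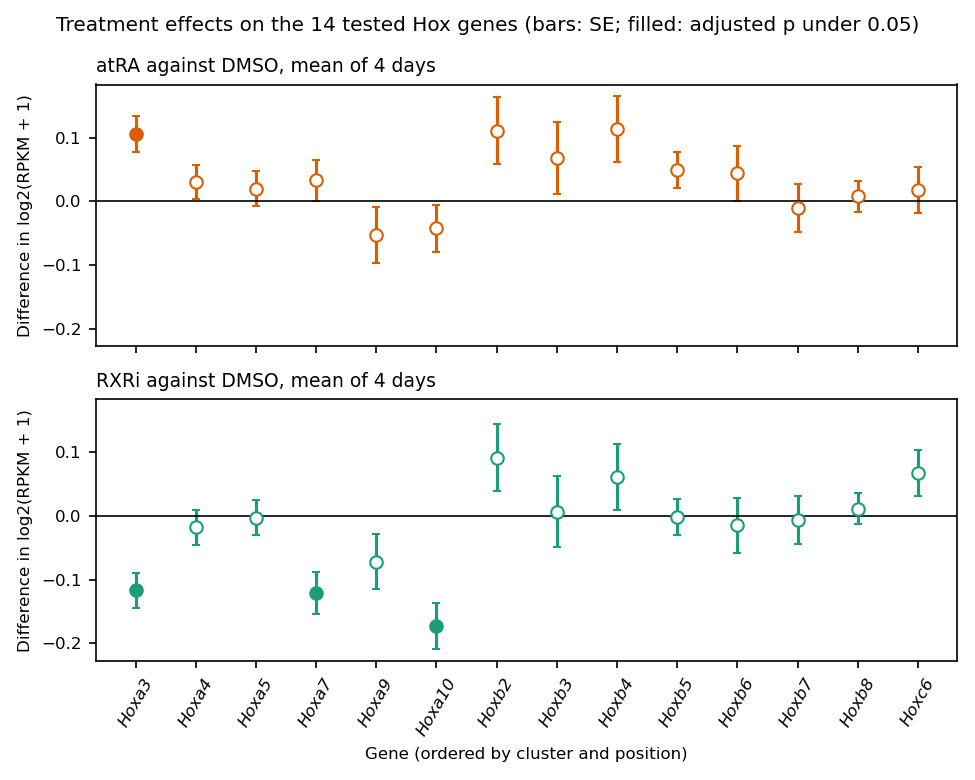
Difference in log2(RPKM + 1) of the 14 tested Hox genes for atRA against DMSO (upper) and RXRi against DMSO (lower), mean of 4 days; bars are standard errors and filled points have an adjusted p under 0.05. Hoxa3 is filled in both, at 0.11 with atRA and -0.12 with RXRi, and Hoxa7 and Hoxa10 only with RXRi.

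Most non-coding genes of the clusters were scarce too: of 15 listed, 13 stayed under 0.1 RPKM in every group. The exceptions were Mira, a HoxA transcript, with 0.111 to 1.04 RPKM, and Hotairm1 with 0.0239 to 0.161 RPKM; neither passed the test for atRA or RXRi over the mean of 4 days. Of the genes of gut regions, Gata4, a factor of the proximal small intestine, had group means of 37.5 to 78.6 RPKM. Per culture, the proximal list summed to 51.8 to 681 RPKM, the distal ileum list to 3.02 to 185 RPKM and the colon list to 0.189 to 11.3 RPKM. The gut segment of the organoids was not tested.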

How the data were processed

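RNA of mouse intestinal organoids was measured by RNA-seq in 52 libraries of 13 groups. The deposited table holds RPKM values, made by the authors from reads demultiplexed with bcl2fastq 2.17 and aligned to mm10 with STAR 2.5.2b, per the submitters' processing notes. Which counter, annotation and strand setting were used is not stated there. RPKM steps came out as whole reads (within 0.001) for all 19708 genes above 0, which gave the depth and gene lengths. Libraries sharing a number come from the same mouse per the labels, which pairs the groups by culture; same-numbered deviations had correlations from -0.317 to 0.759 in the 78 pairs of groups, with a median of 0.149, and 47 exceeded 0.1.

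Duplicates were averaged per culture (26 means). limma 3.58.1 (R 4.3.3, trend and robust, all 13 groups, 13 residual df) was fitted to log2(RPKM + 1), with Benjamini-Hochberg adjustment and a threshold of 0.05. The filter planned (1 RPKM in 4 libraries; 12443 genes) tested no Hox gene, so the lower filter of 0.1 RPKM, set out as a second choice, was used. Genes were named by level: those at 1 RPKM in a group in full, of which there were none, those from 0.1 RPKM with their values, silent ones by name; given that outcome, the genes called were chosen for fuller values after their values were seen. Other genes came from fixed lists; colon, ileum and proximal lists had 5, 4 and 5 genes tested, and over the mean of 4 days 3, 2 and 4 fell and none rose with RXRi (38.6% of all genes fell and 28.5% rose), while 0, 3 and 1 rose and 0, 0 and 1 fell with atRA (7.31% rose and 12.9% fell). The Hox genes and lists were chosen with earlier results of these data known. Alternatives covered the shallow library, pseudocount, filter, scaling, voom on whole reads, culture as a block and each culture left out. The fit was tested on simulated data. No pair of duplicates was identical or within sampling noise. Intervals cover counting error only. Chromosome positions and promoters are RefSeq, GRCm38.p6, the assembly that mm10 names. Some genes of these lists are not reported here by name.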

Additional observations from a re-analysis of the deposited data

Results flagged for a closer look

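In 12 of the groups the 4 libraries of each of the 13 non-silent Hox genes were examined for a library far from the other 3, 156 sets in all, and 17 stood apart. The limit used flags about 1 in 20 sets of independent, normally distributed values. Low counts of duplicates within cultures are not such values, so the 17 cannot be set against that share. A set with reads in 1 library only is always flagged. In 9 of the 17 the other 3 libraries held no read, so that 1 to 4 reads set the library apart. These were Hoxb3 in RXRi at day 5 (0.0451 RPKM), Hoxb5 in RXRi at day 3 (0.0531), in DMSO at day 4 (0.0278) and in RXRi at day 5 (0.0380), Hoxb6 in RXRi at day 3 (0.155), Hoxb7 in DMSO at day 5 (0.0551) and in atRA at day 5 (0.0375), and Hoxc6 in atRA at day 3 (0.0548) and in RXRi at day 5 (0.0294).

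In the other 8 the remaining libraries held reads as well. Hoxa7 had 0.491 RPKM in culture 1 duplicate 1 of DMSO at day 0 and 0.168 to 0.182 RPKM in the other 3 libraries. Hoxa9 had 0.373 RPKM in culture 2 duplicate 1 of that group, against 0.524 to 0.548 RPKM, and without culture 2 of day 0 the day 1 call of Hoxa9 was lost. Hoxa9 in DMSO at day 4 had 0.163 RPKM in culture 2 duplicate 2, against 0.294 to 0.310 RPKM. Hoxa9 in atRA at day 5 had 0.426 RPKM in culture 1 duplicate 1, against 0.133 to 0.180 RPKM. Hoxa10 in RXRi at day 1 had 0.149 RPKM in culture 1 duplicate 2, against 0.245 to 0.258 RPKM. Hoxa7 in RXRi at day 4 had 0 RPKM in culture 2 duplicate 2, against 0.0406 to 0.0434 RPKM, which was 6 reads over the other libraries together.

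Hoxb3 (0.302 RPKM, against 0.0896 to 0.114) and Hoxb4 (0.368 RPKM, against 0.0928 to 0.124) stood apart in the same library, culture 1 duplicate 2 of atRA at day 5. Chga was 40.5 RPKM there, 36.1 RPKM in the other duplicate of culture 1, and 24.3 and 25.6 RPKM in culture 2. The part of enteroendocrine cells was not tested.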

How the results depend on the processing

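Counts of Hox genes called are given for DMSO day 1, 3, 4 and 5 against the day before it, then atRA days 1, 3, 4, 5 and mean, RXRi likewise, and any difference among groups. With the filter of 1 RPKM all were 0, since no Hox gene could be tested; the other alternatives at that filter tested none either and gave no value. The filter of 0.1 RPKM gave 2, 3, 2 and 0, then 0, 0, 0, 1 and 1, then 1, 1, 2, 0 and 3, and 9. No filter gave 3, 3, 1 and 0, then 0, 0, 0, 1 and 1, then 4, 1, 2, 1 and 7, and 14 of 33 tested. The share of all genes called is not given for no filter, so these counts are not a result about Hox genes. For scale, the filter of 0.1 RPKM called 38.6% of all genes lower and 28.5% higher over the RXRi mean. It called 92.3% for any difference.

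The rest, chosen after seeing the data, start from the 0.1 RPKM filter. The shallow library kept gave 0, 1 and 0 for DMSO day 1, 3 and 4, 0 for atRA at day 5, and 0, 0 and 1 for RXRi at days 1, 3 and 4. A pseudocount of 0.1 gave 0 and 1 for DMSO day 1 and 4, 0 for atRA at day 5 and 2 for its mean. Scaling by median of ratios gave 1 for DMSO day 4. Voom gave 0 and 1 for DMSO day 1 and 4, 0 for atRA at day 5 and its mean, and 3, 4 and 2 for RXRi at days 3, 4 and 5. With the culture as a replicate block the counts were those without it (9 for any difference), and voom with the replicate block gave 0 and 1 for DMSO day 1 and 4, 0 for atRA at day 5, and 3, 4 and 2 for RXRi at days 3, 4 and 5; its other counts were within 1.5 times, though over the atRA mean it called Hoxb4 and not Hoxa3. Leaving out 1 culture of a group gave 0 to 3, 1 to 3, 0 to 1 and 0 for DMSO, 0 to 1, 0, 0, 0 to 1 and 1 to 3 for atRA, 1 to 3, 0 to 1, 0 to 1, 0 and 3 to 4 for RXRi, and 8 to 10 for any difference; the lone culture is then assumed to vary like the others.

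Of the 16 single changes called, none reversed in 224 alternative values, and 4 kept their call in all: Hoxb3 at day 3 against day 1 in DMSO, and Hoxa3, Hoxa7 and Hoxa10 over the RXRi mean. In the other 12, 61 values lost the call; the cause was not tested. The silent count was 26 at 0.1 RPKM, 22 at 0.05, 35 at 0.5 and 27 with the shallow library kept. At this depth a level under about 0.1 RPKM cannot be told from 0 in 1 library.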
